A study of Mus with 10 samples.

Results

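Genes of the epidermal lipid barrier, 10 in number (Alox12b, Aloxe3, Elovl1, Elovl4, Cers3, Pnpla1, Ugcg, Abca12, Smpd1 and Lipn), were followed on 10 Affymetrix gene arrays of mouse skin. They were chosen by name, and all 10 of 10 were measured among 22180 genes, each by the probe set with the highest mean among those that name 1 gene. The skin came from female BALB/c mice aged 7 to 8 weeks. The groups were 2 control arrays, 4 arrays labelled PUVA 3D and 4 labelled PUVA 7D. PUVA is topical psoralen, a plant compound that crosslinks DNA when lit, followed by UVA light, given here at 0.25 J/cm2 on 2 days a week for 2 weeks. The 3D and 7D groups had a gap of 3 and 7 days after PUVA, and the control group is described as having no gap. The protocol sets imiquimod, whose use on mouse skin is a model of psoriasis, after the gap. The labels do not settle whether the arrayed skin had received it, nor how the controls were otherwise handled. The samples were whole skin with all its cell types, so fewer cells of a type and less RNA per cell cannot be told apart. That each sample is a separate animal can be read from nothing but the titles, so the p-values stand for the spread among these 10 samples, part of which may be technical.

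The barrier of the skin against water loss lies in the cornified layer, where dead keratinocytes sit in stacked sheets of ceramides, cholesterol and free fatty acids. Keratinocytes of the upper living layers lengthen fatty acids, join them to sphingoid bases as ceramides and acylceramides, attach glucose, and load the products into lamellar bodies. The lamellar bodies are emptied at the border to the cornified layer, where hydrolases turn the precursors into the final lipids. Lipoxygenases oxidise the linoleate of acylceramides so that they can be bound to the corneocyte surface. Inherited loss of several of these genes gives ichthyosis, a disorder of scaling skin.

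Across all genes the arrays had log2 medians of 5.83 to 5.86, and pairs of arrays correlated at 0.988 to 0.996. Skin keratins marked the tissue on every array: Krt10, of the suprabasal epidermis, lay between 12.64 and 12.81, and Krt14, of the basal layer, between 11.76 and 12.18. With limma over all 22180 genes and Benjamini-Hochberg adjustment at 0.05, 1 gene passed between 3D and control skin (0.00451% of genes), 0 between 7D and control (0%), and 2 between 7D and 3D (0.00902%). At an unadjusted p under 0.05 the shares were 9.74%, 5.89% and 9.77%. The number of arrays limits the precision.

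No barrier lipid gene passed the adjusted threshold in any of the 3 comparisons, and none separated the arrays of any pair of groups without overlap. All 10 members lay lower on control replicate 2 than on control replicate 1, and for each member the distance between these arrays was larger than any of its 3 differences between group means. From array to array 9 of the members tended to go up and down together, while Elovl4 had another pattern. All values below are log2 values, on which a difference of 1 is 2-fold, and levels of different genes are not compared, since probe sets differ in brightness.

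**Figure D1:**
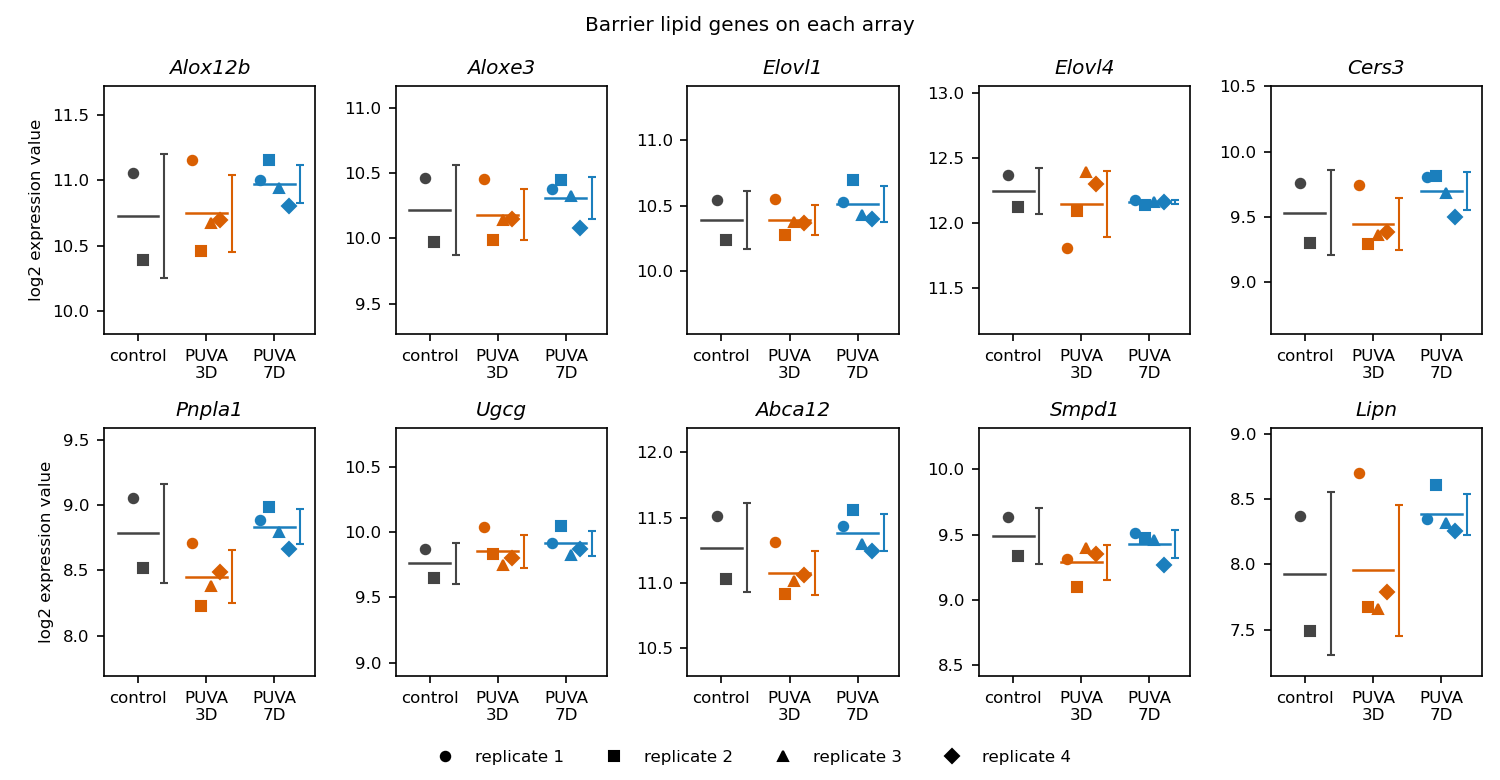
The log2 expression value (vertical axis, of equal height in each panel) of each barrier lipid gene is plotted for the 2 control, 4 PUVA 3D and 4 PUVA 7D arrays; horizontal lines are group means, bars are ± 1 SD and symbols mark the replicate. Control replicate 1 lies above control replicate 2 in all 10 panels, and the 4 PUVA 7D arrays of Elovl4 lie close together.

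The lipoxygenases were considered first. Alox12b encodes the epidermal lipoxygenase that acts on the linoleate of acylceramides. It stood at 11.06 and 10.39 on control replicates 1 and 2, at 11.16, 10.46, 10.67 and 10.70 on 3D replicates 1 to 4, and at 11.00, 11.15, 10.94 and 10.80 on 7D replicates 1 to 4. The low arrays were control replicate 2 and 3D replicate 2, and the 3 groups overlapped. The log2 difference was 0.02 ± 0.21 (SE) for 3D minus control and 0.25 ± 0.21 for 7D minus control, with adjusted p of 0.985 and 0.95 in limma. Aloxe3, whose product turns the hydroperoxide made by Alox12b into an epoxyalcohol, had 10.46 and 9.97 on the controls, 9.99 to 10.45 on the 3D arrays and 10.08 to 10.45 on the 7D arrays. Its differences from control were -0.03 ± 0.16 and 0.09 ± 0.16 (SE), with adjusted p of 0.969 and 0.975. The genes are neighbours: in RefSeq (assembly GRCm38.p6) Alox12b lies between Aloxe3 and Alox8. Alox8, a lipoxygenase that is no member, had differences from control of -0.18 ± 0.18 (SE) at 3D and -0.39 ± 0.18 at 7D, with adjusted p of 0.811 and 0.849.

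Fatty acid chains of the barrier are lengthened by Elovl1, which makes very long saturated chains, and by Elovl4, which carries on to the ultra-long chains found in acylceramides. Elovl1 had 10.55 and 10.23 on the controls, 10.28 to 10.55 on the 3D arrays and 10.40 to 10.70 on the 7D arrays, with differences from control of 0.00 ± 0.12 and 0.12 ± 0.12 (SE; adjusted p in limma 0.997 and 0.96). Elovl4 stood at 12.37 and 12.12 on the controls, at 11.81, 12.09, 12.39 and 12.30 on 3D replicates 1 to 4, and at 12.18, 12.14, 12.16 and 12.16 on 7D replicates 1 to 4. The 3D group thus held both the lowest and the highest Elovl4 value of all arrays, and the 7D arrays lay between them. The SD of Elovl4 was 0.26 in the 3D group and 0.017 in the 7D group (n = 4 each). Its differences from control were -0.10 ± 0.14 at 3D and -0.09 ± 0.14 at 7D (SE), with adjusted p of 0.881 and 0.973.

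Cers3 and Pnpla1 assemble the ceramides of the barrier: Cers3 joins ultra-long chains to the sphingoid base, and Pnpla1 transfers linoleate to give acylceramide. Cers3 had 9.76 and 9.30 on the controls, 9.29 to 9.74 on the 3D arrays and 9.50 to 9.81 on the 7D arrays. Its differences from control were -0.09 ± 0.16 and 0.17 ± 0.16 (SE), with adjusted p of 0.907 and 0.957. Pnpla1 stood at 9.05 and 8.52 on the controls, at 8.71, 8.23, 8.38 and 8.48 on 3D replicates 1 to 4, and at 8.89, 8.98, 8.80 and 8.67 on 7D replicates 1 to 4. Of the 3D arrays, replicates 2, 3 and 4 lay below both controls and replicate 1 lay between them. Pnpla1 had the largest 3D minus control difference among the members, -0.33 ± 0.16 (SE), with a 95% interval of -0.70 to 0.03, an unadjusted p of 0.0703 and an adjusted p of 0.554. At 7D the difference was 0.05 ± 0.16 (adjusted p 0.982). A second probe set of Pnpla1 lay at 4.37 to 4.76, where the lower quartiles of the arrays were 4.17 to 4.23, and gave -0.0036 and -0.044 for the same differences.

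Ugcg, the glucosylceramide synthase, and Abca12, which carries glucosylceramides into lamellar bodies, act next. Ugcg had 9.87 and 9.65 on the controls, 9.75 to 10.04 on the 3D arrays and 9.82 to 10.04 on the 7D arrays, with differences from control of 0.09 ± 0.11 and 0.15 ± 0.11 (SE; adjusted p in limma 0.838 and 0.935). Abca12 stood at 11.51 and 11.03 on the controls, at 11.32, 10.92, 11.01 and 11.06 on 3D replicates 1 to 4, and at 11.44, 11.56, 11.30 and 11.25 on 7D replicates 1 to 4. Control replicate 2 lay among 3D replicates 2 to 4, while control replicate 1 lay among the 7D arrays. The differences from control were -0.19 ± 0.15 and 0.11 ± 0.15 (SE), with adjusted p of 0.736 and 0.971.

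Smpd1 encodes acid sphingomyelinase, which frees ceramide from sphingomyelin, and Lipn a lipase of keratinocytes late in differentiation. Smpd1 had 9.64 and 9.34 on the controls, 9.09 to 9.40 on the 3D arrays and 9.27 to 9.51 on the 7D arrays, with differences of -0.20 ± 0.12 and -0.06 ± 0.12 (SE; adjusted p in limma 0.634 and 0.976). Its second probe set, at 7.73 to 8.10, gave -0.050 and 0.0063. Lipn stood at 8.37 and 7.49 on the controls, at 8.70, 7.67, 7.66 and 7.79 on 3D replicates 1 to 4, and at 8.35, 8.61, 8.32 and 8.26 on 7D replicates 1 to 4. It was the most variable member, with an SD of 0.43 over the 10 arrays, and 3D replicate 1 lay far above the other 3D arrays. The differences from control were 0.02 ± 0.30 and 0.45 ± 0.30 (SE), with adjusted p of 0.988 and 0.931. Lipn lies between the lipase genes Lipk and Lipm in the RefSeq table, and at 7D these had differences from control of 0.15 ± 0.21 and 0.14 ± 0.13 (SE).

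The first comparison asked how skin of the 3D group differed from control. Of the 10 members, 4 lay above 0 and 6 below, with a median log2 difference of -0.06, where the median of all genes was 0.0023 and 49.4% of genes lay below 0. In limma 0 members passed the adjusted threshold and 0 had an unadjusted p under 0.05. No member had its 3D arrays all above or all below both controls, against 9.52% of all genes higher and 7.89% lower. All 10 intervals of 95% included 0 and lay within ± 1, from -0.70 for Pnpla1 to 0.69 for Lipn. In this fit a 2-fold change of a member thus lay outside its interval in either direction. The fit takes 1 spread over the groups, while the controls had a larger SD than both PUVA groups in every member but Elovl4. For Lipn the SD was 0.62 in the controls, 0.50 at 3D and 0.16 at 7D. The intervals against control may therefore be too narrow to exclude a 2-fold change. A p that misses the threshold does not show that the groups were alike.

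The second comparison set the 7D group against control. Here 8 members lay above 0 and 2, Elovl4 and Smpd1, below, with a median of 0.12, against 0.015 for all genes, of which 55% lay above 0. Again 0 members passed in limma and 0 had an unadjusted p under 0.05, and none separated the groups without overlap, against 8.56% of all genes higher and 5.85% lower. The intervals ran from -0.40 for Elovl4 to 1.12 for Lipn, and 9 of 10 lay within ± 1. They too may be too narrow, given the larger spread of the controls. These comparisons share the control arrays.

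**Figure D2:**
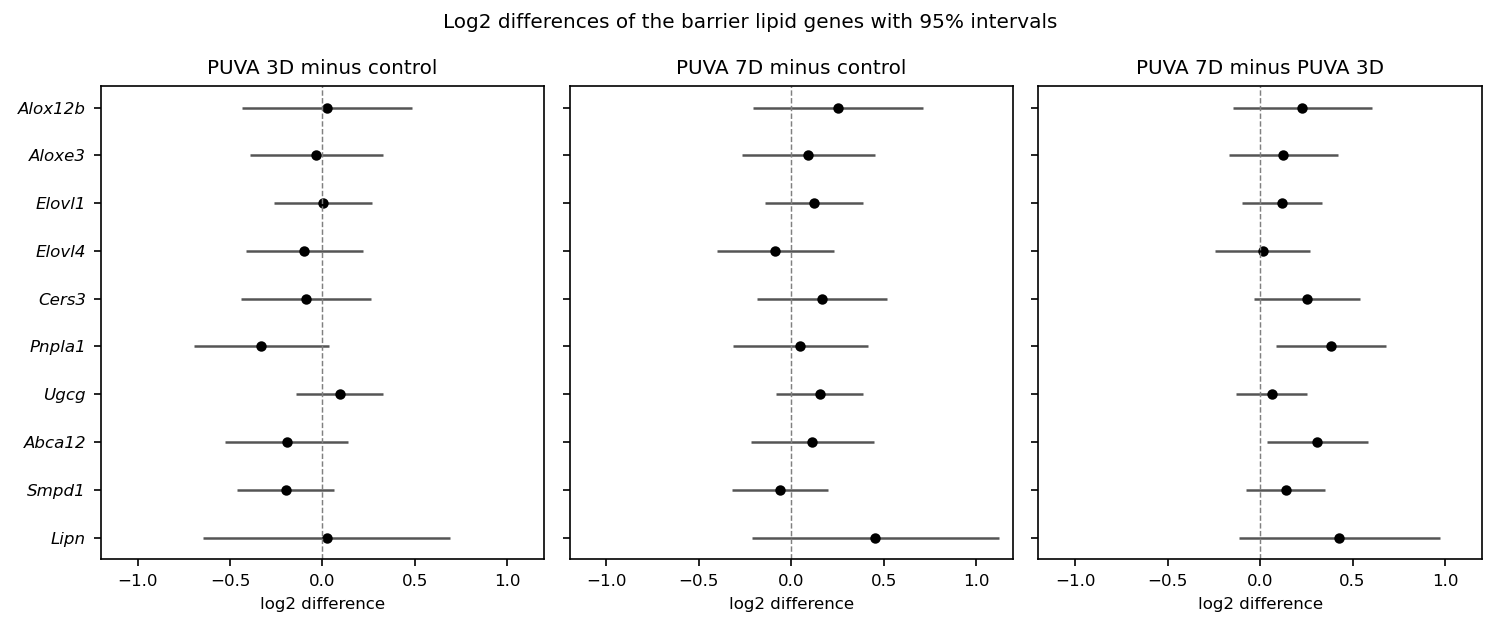
Log2 differences (horizontal axis) of the 10 barrier lipid genes are shown for the 3 comparisons as points, with bars for the 95% interval of the limma fit over 10 arrays. All intervals against control include 0, and those of Pnpla1 and Abca12 between 7D and 3D lie above 0 before adjustment.

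The directions against control rested on which control was used. Control replicate 2 lay below control replicate 1 in all 10 members, by a median of -0.47, while over all genes the median was -0.01 and 52.2% lay lower. The gap was -0.88 for Lipn, -0.67 for Alox12b and -0.22 for Ugcg. A gap between the controls larger than the members' median gap was seen in 6.79% of all genes. Without control replicate 2, all 10 members lay below 0 at 3D, with a median of -0.32. Without control replicate 1, 8 lay above 0 and Pnpla1 and Smpd1 below, with a median of 0.15. At 7D the medians were -0.105 without control replicate 2 and 0.33 without control replicate 1. Each of these fits leaves a single control array. The control that is left is then given the spread of the PUVA groups, so only the sizes of the differences are given here.

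**Figure D3:**
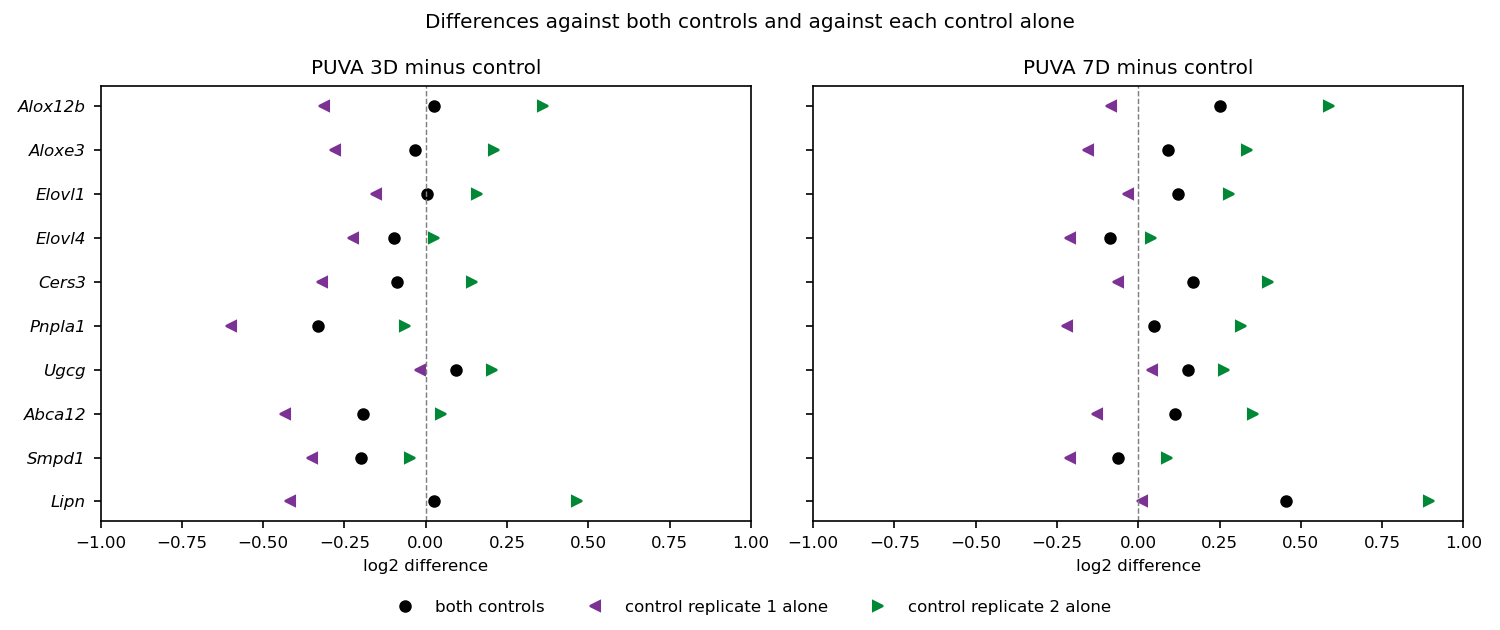
The log2 difference (horizontal axis) of each barrier lipid gene is shown for PUVA 3D and PUVA 7D against both controls (circles), control replicate 1 alone (left-pointing triangles) and control replicate 2 alone (right-pointing triangles). At 3D all 10 members lie below 0 against control replicate 1, and 8 of 10 lie above 0 against control replicate 2.

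The third comparison set 7D against 3D skin and so used no control as reference. All 10 members lay higher at 7D, with a median log2 difference of 0.18 and a range from 0.01 for Elovl4 to 0.43 for Lipn. The median of all genes was 0.0095, and 53.2% of genes lay above 0. Members other than Elovl4 tended to move together over the arrays (median r of their pairs 0.876), so these directions are not separate results. In limma 0 members passed the adjusted threshold. At an unadjusted p under 0.05 there were 2, Pnpla1 and Abca12, or 2 of 10 members against 5.33% of all genes in the upward direction. Pnpla1 differed by 0.38 ± 0.13 (SE), a 1.30-fold difference with a 95% interval of 0.08 to 0.68, an unadjusted p of 0.0169 and an adjusted p of 0.443. Abca12 differed by 0.31 ± 0.12 (SE), or 1.24-fold, with an interval of 0.04 to 0.58, an unadjusted p of 0.0303 and an adjusted p of 0.474. Next came Cers3 with 0.26 ± 0.13 (SE; adjusted p in limma 0.552) and Lipn with 0.43 ± 0.25 (adjusted p 0.60). Alox12b had 0.23 ± 0.17, Smpd1 0.14 ± 0.10, Aloxe3 0.13 ± 0.13, Elovl1 0.12 ± 0.10, Ugcg 0.06 ± 0.09 and Elovl4 0.01 ± 0.12.

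No member had all its 7D arrays above all its 3D arrays or all below them, against 2.95% and 2.28% of all genes. In Pnpla1 and Abca12 the overlap came from 3D replicate 1, which lay above 7D replicate 4 in both. Without 3D replicate 1 the median of the members was 0.29, 9 lay above 0, and 5 had an unadjusted p under 0.05. Without 3D replicate 2 the median was 0.11 and the number 0. Without 3D replicate 3 or 4, or 7D replicate 1 or 2, the number was 1, as it was when the probe sets of each gene were averaged. It was 2 without 7D replicate 3, and 3 without 7D replicate 4 or with only the 3D and 7D groups in the fit. The share of all genes at that unadjusted threshold is not given for these fits, so the counts have no background beside them. Past the adjusted threshold there were 10 genes among all genes without 3D replicate 1 and 5 without 3D replicate 2, against 2 with all arrays. The smallest adjusted p of any member in this comparison over the arrays left out in turn was 0.193, without 3D replicate 1. With the second probe set, Pnpla1 had -0.041 ± 0.10 (SE).

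Most members also tended to move together from array to array. Control replicate 1 and 7D replicate 1 lay above the member's own median over the 10 arrays in 10 of 10 members, 7D replicates 2 and 3 in 9, and 3D replicate 1 in 8. Control replicate 2 and 3D replicate 2 did so in 0 of 10 members, 3D replicate 4 and 7D replicate 4 in 1, and 3D replicate 3 in 2. Control replicate 2 was the lowest array of 5 members and 3D replicate 2 of 4, and the remaining lowest value was that of Elovl4 on 3D replicate 1. Pearson's r of each member with the mean of the others, over the 10 arrays, was 0.697 for Smpd1, 0.752 for Ugcg, 0.875 for Lipn and 0.915 to 0.973 for the other 6, and -0.163 for Elovl4. Over the 36 pairs of members that leave out Elovl4, r had a median of 0.876 and ran from 0.182 to 0.979. Over the 9 pairs with Elovl4 the median was -0.125 and the range -0.48 to 0.45. With the group means removed the medians were 0.914 and -0.132. These are descriptions over arrays that the genes share, with no test.

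Marker lists of the cell types in skin were set beside the members. The differentiating keratinocyte list, 23 genes of the upper epidermis such as Krt1, Krt10 and Flg with no member among them, had means of 10.80 and 10.57 on control replicates 1 and 2, 10.39 to 10.76 on the 3D arrays and 10.65 to 10.85 on the 7D arrays. In the 7D minus 3D comparison 22 of these 23 lay above 0, against 53.2% of all genes, with a median of 0.19. Of them 6 had an unadjusted p under 0.05 in limma, against 5.33% of all genes upward. Krt10 differed by 0.017 ± 0.065 (SE). Against control, 19 lay below 0 at 3D (all genes 49.4%) and 18 above 0 at 7D (all genes 55%). Between 7D and 3D the fibroblast list went the other way, with 8 of 8 genes below 0, against 46.8% of all genes, and a median of -0.29. Its means were 10.76 and 11.26 on the controls, 11.24 to 11.67 on the 3D arrays and 10.79 to 11.25 on the 7D arrays. Macrophage genes had 7 of 8 below 0 and a median of -0.38, with means of 9.48 and 9.65 on the controls, 9.68 to 10.55 at 3D and 9.57 to 10.03 at 7D. Basal keratinocyte genes had 8 of 9 above 0, with a median of 0.11. Skeletal muscle genes had 7 of 8 above 0 and a median of 0.10, with means of 11.82 and 11.60 on the controls, 11.39 to 11.85 at 3D and 11.64 to 11.83 at 7D. The hair list had means of 5.74 and 7.84 on the controls against 4.83 to 5.13 at 3D and 4.85 to 4.97 at 7D, so control replicate 2, on which all 10 members were lower, was the array with the most hair signal. The part of these cell types in the values of the barrier lipid genes was not tested.

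Array by array, 8 members were related to the differentiating keratinocyte list by an adjusted permutation p under 0.05 for r. Members other than Elovl4 tended to move together (median r of their pairs 0.876), so these are not separate results. The share of all genes related as closely to a list was not computed, so the counts have no background. The same 8 were related inversely to the fibroblast list, and Elovl4 to the sebocyte list, 12 genes of the oil-producing gland cells. The relations of the 10 members with these lists and the fibroblast list, 30 in all, were examined over the 10 arrays with permutation tests of 100000 resamples (two-sided), adjusted over the 30. Abca12 had r = 0.94 and rho = 0.927 with the differentiating keratinocyte list, with permutation p of 0.00012 and 0.0004 and adjusted p of 0.0009 and 0.003. Without the 2 arrays farthest from the list's median r was 0.899, and with the group means removed it was 0.907. Of the other members, Pnpla1, Cers3, Alox12b, Lipn, Aloxe3 and Elovl1 had r from 0.854 to 0.938, with adjusted permutation p for r of 0.0009 to 0.00562. Smpd1 had r = 0.724 and rho = 0.6 (adjusted permutation p 0.0315 and 0.107), and Ugcg r = 0.652 and rho = 0.673 (0.0676 and 0.0652). With the fibroblast list Abca12 had r = -0.944 and Pnpla1 r = -0.971, with adjusted permutation p of 0.0009 and 0.0006. Cers3, Smpd1, Elovl1, Aloxe3, Alox12b and Lipn had r from -0.84 to -0.702 with that list (adjusted permutation p 0.00553 to 0.0446). Smpd1 had r = -0.817 there. Ugcg, with r = -0.495, and Elovl4, with r = -0.0644, did not pass (adjusted permutation p 0.222 and 0.876). The p of Pnpla1 before adjustment, 2e-05, is the smallest that the permutations can give. Correlations with the other lists were computed too, as a description outside the 30. The counts of members that passed hold only for the adjustment over those 30, and a wider choice of lists changed them. A trial adjustment that took in the other lists was made after the results were seen. In it Smpd1 no longer passed for r with the keratinocyte list, and some members passed with the skeletal muscle list. A positive relation was not particular to the keratinocyte list: with the skeletal muscle list r was 0.818 for Abca12, from 0.607 for Ugcg to 0.838 for Pnpla1 over the members other than Elovl4, and -0.282 for Elovl4. Without the 2 arrays farthest from the list's median, Aloxe3 had r = 0.897 with the muscle list and r = 0.818 with the keratinocyte list. The part of muscle in these values was not tested.

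Elovl4 had r = -0.166 and rho = -0.0545 with the differentiating keratinocyte list (adjusted permutation p 0.806 and 0.891). With the sebocyte list it had r = 0.944 and rho = 0.855, with permutation p of 0.00032 and 0.00264 and adjusted p of 0.00192 and 0.0088. Without the 2 arrays farthest from the list's median r was 0.797, and with the group means removed it was 0.988. The sebocyte means were 10.27 and 9.94 on the controls, 9.14 to 10.21 on the 3D arrays and 9.89 to 9.98 on the 7D arrays. They were lowest on 3D replicate 1, where Elovl4 was lowest. Smpd1 had r = 0.541 and rho = 0.709 with the sebocytes (adjusted permutation p 0.205 and 0.0462), and the other 8 members had r from -0.498 to 0.17, with adjusted permutation p of at least 0.233. The arrays differ in group as well, and the members and lists were read from the same arrays. The difference between Elovl4 and the other members was itself not tested.

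**Figure D4:**
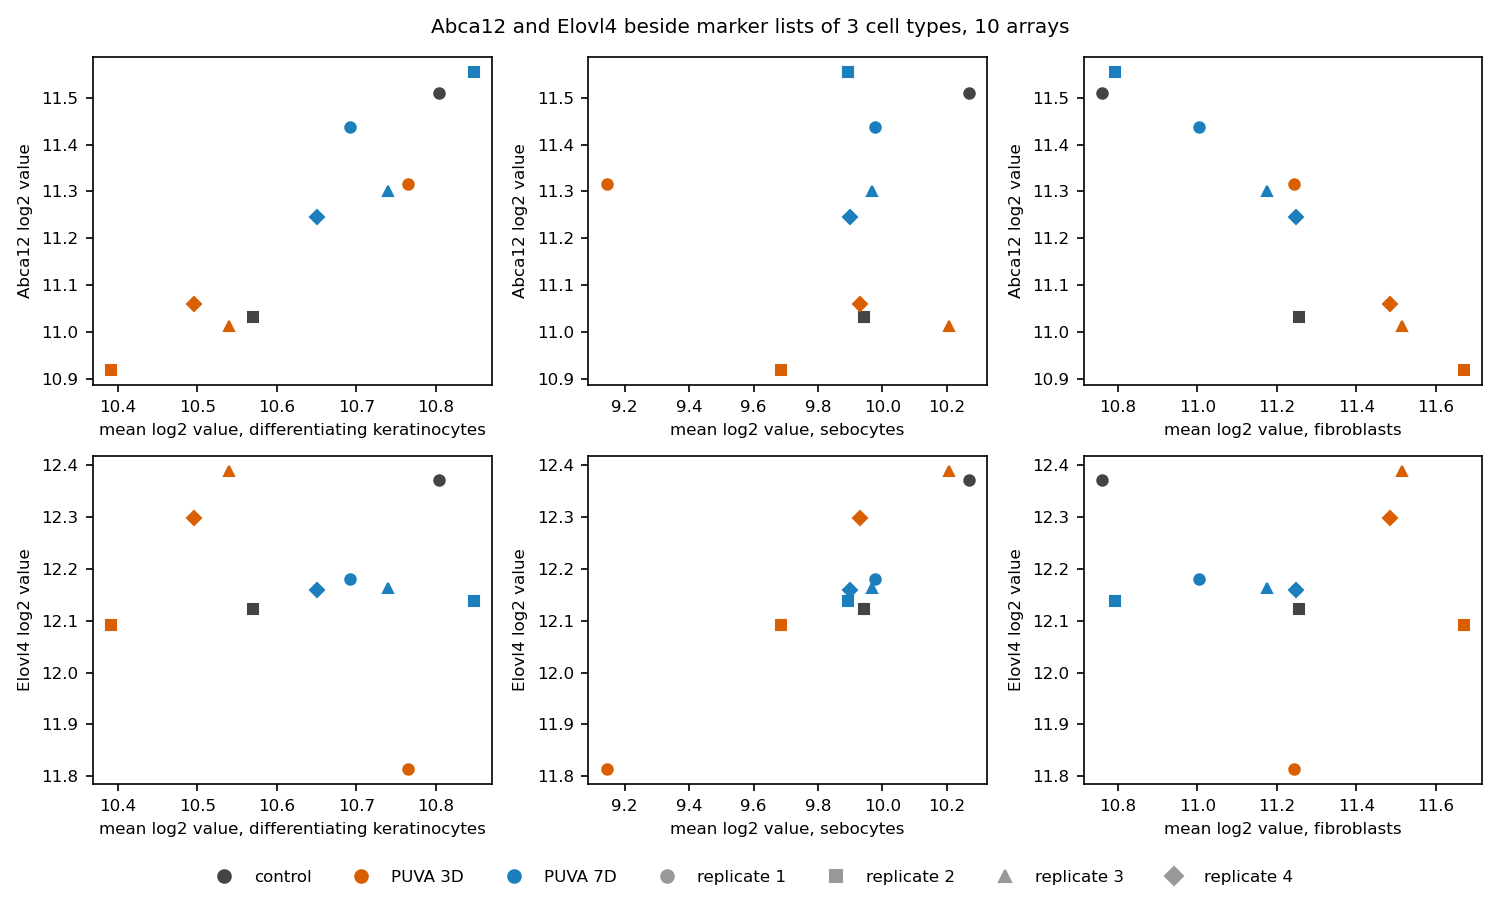
Log2 values of Abca12 (top) and Elovl4 (bottom) are plotted against the mean log2 value of the differentiating keratinocyte, sebocyte and fibroblast lists on the 10 arrays, with colour for the group and symbol for the replicate. Abca12 rises with the keratinocyte list (r = 0.94) and falls with the fibroblast list (r = -0.944), and Elovl4 rises with the sebocyte list (r = 0.944), with 3D replicate 1 at the lower end.

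Genes with the pattern most like that of the set were ranked by Pearson's r over the 10 arrays with the mean of the centred members, among 11082 genes that are no members and vary at least as much as the median gene. The highest-ranked named genes were Pla2g2f, a secreted phospholipase, with r = 0.990, Tmem154 with 0.988, Lce6a, of the late cornified envelope family, with 0.977, Rps6ka6, a ribosomal protein S6 kinase, with 0.976, and Elmod1 with 0.973. The gene model Gm11992 stood among them at the third rank. Pla2g2f stood at 9.60 and 9.06 on the controls, 9.00 to 9.54 on the 3D arrays and 9.37 to 9.63 on the 7D arrays. Its lowest arrays were control replicate 2 and 3D replicate 2, which lay above the member's own median in 0 of 10 members. The gene was picked by its r with the members' mean, so this likeness follows from the choice. For Elovl4 alone, a ranking added after its values were seen gave AAdacl4fm3 (r = 0.991), Hacd2, a dehydratase of fatty acid elongation (0.979), Mc5r, a melanocortin receptor of sebaceous glands (0.974), Tmem164 (0.974) and Pnpla5 (0.972). Without 3D replicate 1 these r ran from 0.935 to 0.982. Mc5r is in the sebocyte list. These ranks are descriptions with no test.

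Other genes of the barrier lipid pathway were taken from 6 lists. None passed the adjusted threshold in limma in any comparison. Of 19 further genes for making and lengthening fatty acids, 15 lay below 0 at 3D and 17 at 7D against control. Of all genes 49.4% and 45% did. The medians of the list were -0.13 and -0.10. Elovl3 is also in the sebocyte list, of which 10 of 12 lay below 0 at 3D and 12 of 12 at 7D. The part of sebocytes in these values was not tested. Elovl6, which elongates palmitate, had 12.85 and 12.49 on the controls and 11.97 to 12.50 at 3D, a difference of -0.42 ± 0.15 (SE; adjusted p in limma 0.438). Hacd1, another elongation dehydratase, had 0.28 ± 0.12 at 3D (adjusted p 0.494), and Fads2, a desaturase, -0.77 ± 0.31 at 7D (adjusted p 0.815). Fads2 stood at 7.80 and 9.07 on the controls, and the 7D arrays, at 7.35 to 7.93, overlapped the lower control. Of 17 further genes of ceramide synthesis, 11 lay below 0 in each comparison with control, and 0 had an unadjusted p under 0.05 there. The shares of all genes below 0 were 49.4% at 3D and 45% at 7D. Between 7D and 3D, Cers2, a synthase of very long chain ceramides, had -0.23 ± 0.09 (SE; adjusted p 0.478) and was the only member of that list at an unadjusted p under 0.05.

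The list of sphingolipid processing and lamellar body genes, 19 in all, had medians of -0.0059 at 3D and -0.0089 at 7D against control, and held the smallest p of the pathway. Acer2, an alkaline ceramidase, stood at 9.34 and 8.82 on the controls, 7.77 to 8.39 on the 3D arrays and 8.65 to 8.88 on the 7D arrays. The 3D arrays thus lay below both controls and below all 7D arrays. The difference was -1.07 ± 0.18 (SE) for 3D minus control and 0.72 ± 0.15 for 7D minus 3D, with unadjusted p of 0.000112 and 0.000556 and adjusted p of 0.117 and 0.217. Its relative Acer3 had -0.36 ± 0.11 and 0.23 ± 0.09 for the same comparisons (adjusted p in limma 0.379 and 0.471). Ugt8a, the galactosyltransferase that makes galactosylceramide, the sphingolipid of myelin, lay on the other side: 6.47 and 6.17 on the controls, 7.02 to 7.71 at 3D and 6.79 to 7.08 at 7D. Its differences were 0.98 ± 0.17 and 0.60 ± 0.17 (SE) from control, with adjusted p of 0.117 and 0.748. Ugcg, which puts glucose on the same ceramides, had 0.09 and 0.15.

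Among 11 further lipoxygenases and enzymes that handle their products, 0 had an unadjusted p under 0.05 against control. Alox15, a lipoxygenase also made by macrophages, had -0.82 ± 0.27 (SE) for 7D minus 3D (adjusted p in limma 0.408), with 6.72 on each control, 6.70 to 8.15 at 3D and 6.29 to 6.83 at 7D. Of 9 further lipases and cholesterol sulfate genes, 7 lay below 0 at 3D against control, as did 49.4% of all genes. Pnpla3, a lipase of the same family as Pnpla1, had -0.43 ± 0.18 at 3D against control and 0.51 ± 0.14 for 7D minus 3D (SE; adjusted p 0.482 and 0.323). Ces1d, a carboxylesterase, had -0.56 ± 0.22 and Lipa, the lysosomal acid lipase, 0.34 ± 0.13 at 3D (adjusted p 0.467 and 0.475). Lipm, the neighbour of Lipn, had 0.29 ± 0.11 for 7D minus 3D (adjusted p 0.451).

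The list of regulators held 19 genes of transcription in the epidermis. At an unadjusted p under 0.05, 5 were lower at 3D than in control, against 4.07% of all genes in that direction, and 5 were higher at 7D than at 3D, against 5.33%. In limma 0 passed the adjusted threshold in either. Ppara, a nuclear receptor for fatty acids, stood at 6.93 and 6.91 on the controls, 6.51 to 6.69 at 3D and 6.70 to 6.93 at 7D. The 3D arrays lay below both controls and below all 7D arrays, with differences of -0.29 ± 0.09 for 3D minus control and 0.21 ± 0.07 for 7D minus 3D (SE; adjusted p 0.354 and 0.424). Pparg, its relative in sebocytes and adipocytes, had -0.28 ± 0.09 and 0.24 ± 0.07 (adjusted p 0.385 and 0.359). Grhl2, a grainyhead factor of epithelia, had -0.32 ± 0.11 at 3D against control, and Tfap2c, an AP-2 factor of keratinocytes, 0.27 ± 0.08 for 7D minus 3D (adjusted p 0.436 and 0.373). Klf4, a factor of barrier formation, had 0.37 ± 0.15 for 7D minus control (adjusted p 0.822). The sebocyte, keratinocyte and fibroblast means given above differed between the same arrays, and their part in these values was not tested.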

How the data were processed

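Skin RNA of 10 samples was measured on Affymetrix gene arrays after labelling with the WT PLUS kit, per the labels' protocols. The authors deposited 1 value per probe set and array for 41345 rows, read here as log2 values. The range of the values led to that base, while summary method and normalization were not given in the sources used here. Arrays carry no read depth. Genes were assigned through the annotation of the platform: 23521 probe sets had 1 symbol, 1814 several, and 16010 rows had no listed gene. For 1082 genes with more than 1 probe set the one with the highest mean was used, which gave 22180 genes with no filter.

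The model had a mean for each group and was fitted to the 10 arrays together by limma 3.58.1 under R 4.3.3 (functions lmFit, then eBayes; two-sided tests; 7 residual and 3.514 prior degrees of freedom), with Benjamini-Hochberg adjustment over all genes at 0.05. The fit takes 1 spread per gene over the groups, so errors against control are too small where the spread of the 2 controls exceeds that of the PUVA arrays. Correlations used permutation tests (scipy 1.17.1). On simulated data with 200 of 22180 genes changed, 89% of log2 changes of 1 were recovered for 3D minus control, 88% for 7D minus control and 92% for 7D minus 3D. There, genes varied independently with equal spread in all groups. The 200 planted changes also ease the Benjamini-Hochberg cutoff, whereas in the data 0 to 2 genes passed per comparison. The recovered shares therefore do not carry over to the members. In the data, 3D minus control differences of -1.07 for Acer2 and -4.94 for Krt71 had adjusted p of 0.117 and 0.086 in limma.

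The members and lists were chosen with earlier results of these data known. Named genes were all members, up to 3 genes per pathway list and comparison with the smallest unadjusted p under 0.05, a few marker genes (Krt5 was not matched), and the 5 genes most like the set. Some genes of the lists were not matched and are not analysed here. The alternatives tried were leaving out the lowest 30% of genes, the mean of all probe sets, quantile normalization, median centring, eBayes with trend and robust settings, array weights, only the groups compared, and each array left out. UVB-treated skin is not analysed here.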

Additional observations from a re-analysis of the deposited data

Results flagged for a closer look

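Lipn in the 3D group had a lone high array: 3D replicate 1 stood at 8.70, against 7.66, 7.67 and 7.79 on the other arrays of the group, a gap of 0.877 of the group's range. Of 20 combinations of a member and a PUVA group this was the 1 that passed Dixon's test, and chance flags about 1 in 20. On the same array the differentiating keratinocyte and skeletal muscle lists were the highest of the group, and the sebocyte and fibroblast lists were among those at their lowest. Their part in the value was not tested.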

How the results depend on the processing

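The count of members past an adjusted p of 0.05 was 0 in all 3 comparisons under every alternative and with each array left out. Under all 8 alternatives that keep every array, the members' median log2 difference moved by less than 0.18. That is the pooled within-group SD of the members' mean per array. It is larger than the medians against control, so this bound cannot show that they held. The medians themselves ran from -0.063 to -0.019 at 3D and from 0.108 to 0.129 at 7D against control. For 7D minus 3D they ran from 0.123 to 0.191. With single arrays left out the median ran from -0.3153 to 0.1508 at 3D and from -0.105 to 0.3266 at 7D against control, the ends being set by the controls, and from 0.1063 to 0.2852 for 7D minus 3D.

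Of the differences of single members, 210 of 216 kept their direction under those alternatives. With array weights Elovl1 had -0.0045 and Lipn -0.025 at 3D against control, and Elovl4 -0.029 for 7D minus 3D. With the lower probe set, an alternative chosen after seeing the data, Pnpla1 had -0.044 and Smpd1 0.0063 at 7D against control, and Pnpla1 -0.041 for 7D minus 3D. With arrays left out, 276 of 300 kept it. The ranges of those that turned were, at 3D against control, -0.31 to 0.36 for Alox12b, -0.28 to 0.21 for Aloxe3, -0.15 to 0.16 for Elovl1, -0.22 to 0.026 for Elovl4, -0.32 to 0.14 for Cers3, -0.018 to 0.20 for Ugcg, -0.43 to 0.045 for Abca12 and -0.42 to 0.47 for Lipn. At 7D against control they were -0.084 to 0.59 for Alox12b, -0.15 to 0.34 for Aloxe3, -0.033 to 0.28 for Elovl1, -0.21 to 0.038 for Elovl4, -0.063 to 0.40 for Cers3, -0.22 to 0.32 for Pnpla1, -0.13 to 0.35 for Abca12 and -0.21 to 0.088 for Smpd1. For 7D minus 3D, Elovl4 ran from -0.099 to 0.093. No paired analysis was possible because the labels give no replicate numbers shared between the groups.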
